A study of Rattus norvegicus with 40 samples.

Results

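Hepatic ABC efflux transporters are membrane pumps that use ATP to carry drugs, bile salts, phospholipids and conjugates out of the cell. The 10 studied here were taken by gene symbol from the 17337 genes counted in rat liver: Abcb1a, Abcb1b, Abcb4, Abcb11, Abcc1, Abcc2, Abcc3, Abcc4, Abcc6 and Abcg2. Abcb1b was chosen by its measured levels in these same samples, a strong rise under treatment that shrank once treatment stopped, so its levels are given as a description with no test. The other 9 members were tested.

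The study treated male Fischer 344 rats, 7 weeks old at the start, with diethylnitrosamine (DEN), a liver carcinogen that damages DNA, by intraperitoneal injection at 50 mg/kg once a week. Rats were sampled after 8 weeks of injections, after 14 weeks, or at 20 weeks, which is 14 weeks of injections followed by 6 weeks without them. Untreated males of the same strain and age (no DEN) were sampled at each time. Messenger RNA was sequenced from no DEN liver, from the non-tumoral (NT) liver of DEN-treated rats at all 3 times, and from 2 nodules of each DEN-treated rat at 14 and 20 weeks, which gave 40 libraries from 24 rats with 4 rats in each of the 8 groups. NT liver and nodules at one time came from the same rats, and both were compared with the same no DEN rats, so these comparisons share samples.

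In the liver, the canalicular membrane of the hepatocyte faces the bile and the basolateral membrane faces the blood. Abcb11 (the bile salt export pump), Abcb4 (which moves phosphatidylcholine into bile) and Abcc2 (which exports bilirubin and drug conjugates) sit on the canalicular side together with the drug pumps Abcb1a, Abcb1b and Abcg2. Abcc1, Abcc3, Abcc4 and Abcc6 sit on the basolateral side, and Abcc3 and Abcc4 are known for carrying bile salts and conjugates back to the blood when bile flow fails.

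Libraries held 20528515 to 160622633 counted read pairs (median 30477421), and the largest, from NT liver at 20 weeks, was 4.08-fold deeper than the next. The nodule libraries of rat F06 at 14 weeks stood apart, with unassigned pairs (outside exons, partly outside one, or on the other strand) equal to 63.2% and 44.7% of the counted pairs, against 32.1% to 42.5% in the other 38 libraries, and the first of them had the fewest counted pairs of all 40. Levels are given as CPM, a gene's counts relative to the total of its library, scaled by TMM, a factor that corrects for differences in RNA composition between libraries, and the 2 nodules of a rat were added to give 1 value. The lowest count of any member in any library was 20 pairs, for Abcc1 in no DEN liver. All 6 hepatocyte markers were present, and their summed level was 232466 to 265940 CPM in no DEN liver at 14 weeks against 147936 to 189946 in NT liver and 128699 to 157613 in nodules. In whole tissue, fewer cells of a type and less RNA per cell cannot be told apart.

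DEN-treated liver was compared with no DEN liver of the same age to ask which pumps changed while the carcinogen was given and after it was stopped. A change was called when the log2 fold change was at least 0.5 in size and the adjusted p was at most 0.05 (edgeR's quasi-likelihood test, Benjamini-Hochberg adjustment over all genes tested, n = 4 rats a group). In NT liver at 8 weeks 3 of the 9 tested members rose and 2 fell, where 16.5% of 10812 genes rose and 5.21% fell. At 14 weeks 4 members rose and 1 fell (22.8% and 9.85% of 11016 genes), and at 20 weeks 3 rose and none fell (14.3% and 3.82% of 10827). In nodules 4 members rose and 1 fell at 14 weeks (23.9% and 15.2% of 11316 genes), and 3 rose and 2 fell at 20 weeks (23.6% and 15.2% of 11199). The median log2 fold change of the 9 members was 0.38 in NT liver at 14 weeks against 0.020 over all genes, and -0.024 in nodules at 20 weeks against 0.0070. A stricter threshold of 1 in log2 size and 0.01 in adjusted p called 7.91%, 15.2% and 5.22% of genes in NT liver at 8, 14 and 20 weeks, and 18.7% and 17.4% in nodules at 14 and 20 weeks. At that threshold the calls described below were lost for Abcb1a, Abcb4 and Abcc2 in NT liver at 8 weeks, Abcc6 in NT liver at 14 weeks, Abcb1a and Abcb11 in nodules at 14 weeks, and Abcc6 in nodules at 20 weeks.

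**Figure D1:**
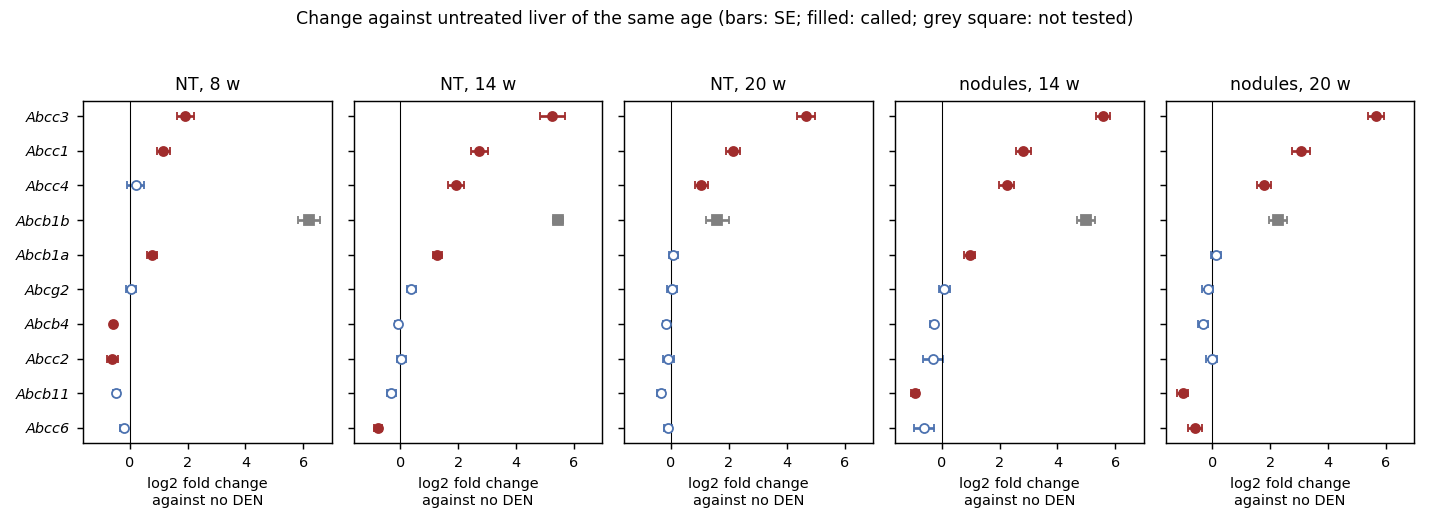
Log2 fold change of each member against no DEN liver of the same age, in NT liver at 8, 14 and 20 weeks and in nodules at 14 and 20 weeks. Points are edgeR estimates with standard errors worked out from the F value of the fit, filled red where called and open where not. Grey squares are for Abcb1b, for which no test is given. Abcc3 reached 5.25 in NT liver at 14 weeks and 5.65 in nodules at 20 weeks, while Abcb1b went from 6.21 at 8 weeks to 1.60 in NT liver at 20 weeks.

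The drug pump Abcb1b, the P-glycoprotein gene known to be inducible in rat hepatocytes, had the largest ratio between its highest and lowest group mean of the 10 members. In no DEN liver at 8 weeks the 4 rats, in the order of their numbers, had 1.99, 1.85, 3.51 and 1.25 CPM. NT liver at 8 weeks had 108, 119.9, 222 and 198 CPM. The lowest DEN-treated rat was far above the highest untreated one, and the log2 difference was 6.21. At 14 weeks, no DEN liver had 5.53, 3.63, 3.45 and 5.79 CPM, NT liver 185, 225, 203 and 190.2 CPM and nodules 83.1, 202, 155 and 166 CPM. Neither DEN-treated tissue overlapped no DEN liver, and the nodules of the rat numbered F06 were the lowest of the DEN-treated values at that time.

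At 6 weeks after the last injection, levels of Abcb1b were lower in both DEN-treated tissues and higher in no DEN liver than at 14 weeks. No DEN liver at 20 weeks had 6.29, 19.8, 9.28 and 13.5 CPM, NT liver 25.7, 27.6, 54.3 and 40.2 CPM and nodules 54.3, 44.4, 73 and 72 CPM. The groups still did not overlap with no DEN liver. The log2 difference from no DEN liver was 5.45 in NT liver and 5.0 in nodules at 14 weeks, and 1.60 and 2.27 at 20 weeks. Of the mean level at 14 weeks, NT liver kept 0.184-fold and nodules 0.402-fold at 20 weeks. In untreated rats the mean went from 2.15 ± 0.962 CPM (SD) at 8 weeks to 4.6 ± 1.23 at 14 weeks and 12.2 ± 5.86 at 20 weeks, a 5.68-fold difference from first to last, so part of the smaller ratio at 20 weeks lay in its denominator. In order of mean level the groups were no DEN at 8, 14 and 20 weeks, NT at 20 weeks, nodules at 20 weeks, nodules at 14 weeks, NT at 8 weeks and NT at 14 weeks. The ranges of neighbours overlapped between no DEN at 8 and 14 weeks, between NT and nodules at 20 weeks, and among the last 3.

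The promoters of Abcb1b and its neighbour and near copy Abcb1a are shown because the pair lie side by side, with Abcb4 next to Abcb1b, and differ in the data described here. RefSeq gives the 250 bases before and the 50 after the annotated start on assembly GRCr8 for 8 of the 10 members. Abcb11 and Abcc3 had no entry. Both sequences run 5′ to 3′ on the gene's strand, and capitals mark matches to a motif on either strand. The motifs searched were the GC box GGGCGG, the CCAAT box CCAAT, the AP-1 site TGANTCA, the antioxidant response element core TGACNNNGC and the inverted repeat known to be bound by the bile acid receptor FXR.
Abcb1b, chr4:26279980-26280279, minus strand: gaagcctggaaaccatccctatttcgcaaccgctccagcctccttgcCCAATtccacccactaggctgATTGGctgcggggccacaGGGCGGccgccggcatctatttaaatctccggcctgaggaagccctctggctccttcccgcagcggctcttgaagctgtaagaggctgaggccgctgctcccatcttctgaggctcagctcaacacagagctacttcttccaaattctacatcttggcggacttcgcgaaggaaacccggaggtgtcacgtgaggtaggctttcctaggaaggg
Abcb1a, chr4:26397599-26397898, minus strand: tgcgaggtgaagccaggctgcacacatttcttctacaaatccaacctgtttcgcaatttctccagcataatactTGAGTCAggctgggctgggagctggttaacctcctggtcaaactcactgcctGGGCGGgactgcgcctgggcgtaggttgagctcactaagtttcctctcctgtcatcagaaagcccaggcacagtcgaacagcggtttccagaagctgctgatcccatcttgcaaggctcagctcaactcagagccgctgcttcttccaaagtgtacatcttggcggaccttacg
The Abcb1b window held 2 CCAAT matches and 1 GC box, and the Abcb1a window held 1 AP-1 match and 1 GC box. Runs of 14 bases (aggctcagctcaac) and 15 bases (tacatcttggcggac) were shared by the pair. Counted from the annotated first base as 0, the first run began at -54 in Abcb1b and at -11 in Abcb1a, and the second at -17 and 29, so the annotated starts are offset between the pair.

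Abcb1a, the other P-glycoprotein gene of the rat, was also higher in DEN-treated liver at 8 and 14 weeks, by smaller differences. At 8 weeks no DEN liver had 10.4, 9.54, 10.8 and 7.05 CPM and NT liver 11.6, 15.7, 19.6 and 17.9 CPM. At 14 weeks no DEN liver had 7.4, 11.3, 9.13 and 13.4 CPM, NT liver 27.3, 25.2, 23.7 and 22.9 CPM and nodules 14.5, 23.9, 22.2 and 21.5 CPM. None of these DEN-treated groups overlapped its no DEN group. Abcb1a rose by 0.77 ± 0.18 (log2, SE) in NT liver at 8 weeks (adjusted p = 0.00883), by 1.28 ± 0.15 at 14 weeks (adjusted p = 1.12e-04) and by 0.96 ± 0.20 in nodules at 14 weeks (adjusted p = 0.00361). At 20 weeks no DEN liver had 17, 15.5, 9.47 and 16.1 CPM, NT liver 14.3, 14.8, 17.2 and 14.8 and nodules 14.7, 14.1, 16.1 and 20.3, and the ranges overlapped. The log2 fold change was then 0.07 in NT liver (95% CI -0.27 to 0.41, adjusted p = 0.765) and 0.12 in nodules (95% CI -0.28 to 0.51, adjusted p = 0.600). The counts of Abcb1a and Abcb1b leave out pairs that aligned to several places, so pairs from stretches common to the near copies are missing from both. The same holds for Abcc1 and Abcg2, each of which has an annotated pseudogene.

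Abcg2, the breast cancer resistance protein that exports drugs and porphyrins, passed the test in none of the comparisons with no DEN liver. Its log2 fold changes lay between -0.17 (nodules at 20 weeks, 95% CI -0.56 to 0.22) and 0.38 (NT liver at 14 weeks, 95% CI 0.022 to 0.74, adjusted p = 0.0688). No DEN liver had 9.59, 9.54, 7.7 and 10.8 CPM at 8 weeks, 4.42, 7.26, 6.4 and 5.28 at 14 weeks and 3.85, 5.15, 6.56 and 4.38 at 20 weeks. Untreated rats at 14 weeks were all below those at 8 weeks, by -0.67 on the log2 scale, with an adjusted p of 0.384 in edgeR and 0.0336 in DESeq2. Without rat H07 the value was -0.76 and the edgeR adjusted p 0.0310.

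Among the canalicular pumps of bile, Abcb11 was lower in nodules. No DEN liver had 799.5, 592, 711 and 611 CPM at 14 weeks and 740.0, 719.7, 765 and 906 at 20 weeks. Nodules had 335, 334, 327 and 464 CPM at 14 weeks and 389, 559, 295 and 340.0 at 20 weeks. Every nodule value was below every no DEN value of its time. Abcb11 fell by 0.93 ± 0.15 (log2, SE) in nodules at 14 weeks (adjusted p = 9.25e-04) and by 1.03 ± 0.20 at 20 weeks (adjusted p = 0.00198). NT liver had 481, 452, 588 and 482 CPM at 8 weeks, 648, 461, 442 and 618 at 14 weeks and 562, 758, 709 and 455 at 20 weeks, overlapping no DEN liver each time. Its log2 fold changes there were -0.45 (95% CI -0.72 to -0.19), -0.31 (95% CI -0.64 to 0.011) and -0.34 (95% CI -0.67 to -0.02), none of them called. The adjusted p at 8 weeks was 0.0139, with a change smaller than the size set for a call, and without rat H05 or rat H17 it was called at -0.55 (adjusted p = 0.00461 and 0.00274).

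Abcb4 and Abcc2 fell in NT liver at 8 weeks and passed the test in no later comparison with no DEN liver. For Abcb4, no DEN liver at 8 weeks had 135, 144, 151 and 131 CPM and NT liver 91.1, 103, 94.4 and 92 CPM, with no overlap, and the log2 fold change was -0.57 ± 0.077 (SE, adjusted p = 4.03e-04). At the later times its group means lay between 117 ± 9.68 CPM (SD, nodules, 14 weeks) and 143 ± 25 CPM (SD, no DEN, 20 weeks), and no comparison with no DEN liver was called. For Abcc2, no DEN liver at 8 weeks had 549.6, 661, 635 and 629.7 CPM and NT liver 336, 279, 557 and 464 CPM. These ranges overlapped, and both rats numbered F were the lowest of the NT group. The log2 fold change was -0.60 ± 0.20 (SE, adjusted p = 0.0370). The call ended when rat H06, H07, H08, F09 or F10 was left out (-0.58, -0.58, -0.60, -0.51 and -0.45, adjusted p from 0.0539 to 0.0906), and in rats numbered H alone the value was -0.27 (adjusted p = 0.0929). Later values of Abcc2 were 0.031 and -0.098 in NT liver, and -0.30 (95% CI -1.05 to 0.45) and -0.025 in nodules.

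The promoter of Abcc2 is shown because it held the only match to the antioxidant response element core among the 8 member promoters, and that of Abcc1 because it held 5 GC box matches, the most of the 8. In Abcc1, GC boxes that overlap by a base appear as 1 run of capitals.
Abcc2, chr1:252613625-252613924, plus strand: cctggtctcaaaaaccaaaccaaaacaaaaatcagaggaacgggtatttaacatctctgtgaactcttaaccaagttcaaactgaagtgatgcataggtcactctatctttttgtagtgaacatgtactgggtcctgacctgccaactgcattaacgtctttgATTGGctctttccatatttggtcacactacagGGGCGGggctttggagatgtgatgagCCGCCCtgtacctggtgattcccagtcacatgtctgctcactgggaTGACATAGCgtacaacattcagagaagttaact
Abcc1, chr10:1162318-1162617, minus strand: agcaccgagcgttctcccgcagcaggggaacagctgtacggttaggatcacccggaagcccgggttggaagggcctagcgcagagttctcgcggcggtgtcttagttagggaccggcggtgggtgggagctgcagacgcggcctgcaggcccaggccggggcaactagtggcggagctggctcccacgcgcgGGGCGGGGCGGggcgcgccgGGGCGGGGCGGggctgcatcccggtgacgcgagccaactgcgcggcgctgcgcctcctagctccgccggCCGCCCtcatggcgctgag
A GC box was present in 8 of 8 member promoters and in 33.1% of all 33469 rat promoters of the same length. A CCAAT box was present in 3 of 8 (Abcb1b, Abcc2 and Abcc6) and in 37.5% of all. The antioxidant response element core was present in 1 of 8 and 12.1% of all, the AP-1 site in 1 of 8 and 7.33%, and the FXR inverted repeat in 0 of 8 and 0.0269%. These are matches of letters in a short window and were not tested as binding sites.

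On the basolateral side, Abcc3, which carries conjugates and bile salts to the blood, was called higher at every time and in both tissues. At 8 weeks no DEN liver had 3.67, 2.25, 2.76 and 3 CPM and NT liver 8.63, 7.96, 8.98 and 19.1 CPM. At 14 weeks no DEN liver had 1.51, 2.47, 2.36 and 2.81 CPM, NT liver 36.9, 119, 101 and 90.1 and nodules 74, 118, 144 and 110.2. At 20 weeks no DEN liver had 2.54, 1.81, 2.14 and 1.85 CPM, NT liver 31.2, 44.4, 72.5 and 62.4 and nodules 83.5, 71.7, 135 and 145. No DEN-treated group overlapped its no DEN group, and the rats numbered F were the lowest of the NT groups at 14 and 20 weeks. Abcc3 rose by 1.92 ± 0.30 (log2, SE) in NT liver at 8 weeks (adjusted p = 0.00118), by 5.25 ± 0.43 at 14 weeks (adjusted p = 5.33e-05) and by 4.66 ± 0.31 at 20 weeks (adjusted p = 1.35e-04). In nodules it rose by 5.57 ± 0.25 at 14 weeks (adjusted p = 2.93e-06) and by 5.65 ± 0.27 at 20 weeks (adjusted p = 2.26e-06), which is 50.4-fold.

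Abcc1, a pump of glutathione conjugates and leukotrienes, was near 1 CPM in all 3 no DEN groups and was also called higher in every comparison. At 8 weeks no DEN liver had 0.994, 1.37, 0.908 and 1.33 CPM and NT liver 2.88, 1.72, 3 and 2.76 CPM. At 14 weeks no DEN liver had 1.47, 0.907, 0.8 and 1.17 CPM, NT liver 4.02, 9.88, 7.99 and 6.98 and nodules 5.1, 9.34, 8.72 and 8.58. At 20 weeks no DEN liver had 1.02, 1.32, 1.12 and 0.859 CPM, NT liver 3.86, 3.47, 6.41 and 5.14 and nodules 5.74, 6.65, 13.7 and 11.2. Neither DEN-treated tissue overlapped no DEN liver at any time. Abcc1 rose by 1.16 ± 0.23 (log2, SE), 2.73 ± 0.29 and 2.15 ± 0.25 in NT liver at 8, 14 and 20 weeks (adjusted p = 0.00336, 5.66e-05 and 4.26e-04). In nodules it rose by 2.82 ± 0.26 and 3.06 ± 0.31 at 14 and 20 weeks (adjusted p = 4.67e-05 and 7.62e-05).

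Abcc4, a pump of cyclic nucleotides and bile salts, was called higher from 14 weeks on. At 8 weeks no DEN liver had 3.97, 5.52, 5.8 and 4.76 CPM and NT liver 3.43, 3.75, 7.74 and 8.34 CPM. The NT values fell apart by the letter of the rat's number, with the rats numbered F below the no DEN range and those numbered H above it. The log2 fold change was 0.20 (95% CI -0.46 to 0.87, adjusted p = 0.630), and 0.69 in rats numbered H alone (adjusted p = 0.0168). At 14 weeks no DEN liver had 5.53, 5.69, 5.24 and 5.49 CPM, NT liver 10.4, 25.1, 27.7 and 19.3 and nodules 15, 28, 39.1 and 24.5. At 20 weeks no DEN liver had 5.32, 7.95, 6.02 and 4.94 CPM, NT liver 8, 12.3, 15.9 and 13.5 and nodules 14.8, 16, 29.1 and 26.7. From 14 weeks the DEN-treated groups lay above no DEN liver with no overlap. Abcc4 rose by 1.92 ± 0.28 (log2, SE) and 1.05 ± 0.22 in NT liver at 14 and 20 weeks (adjusted p = 5.32e-04 and 0.00692), and by 2.24 ± 0.25 and 1.79 ± 0.24 in nodules (adjusted p = 1.16e-04 and 3.47e-04).

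Abcc6, whose loss causes ectopic calcification and which is expressed mainly in liver, went the other way. At 14 weeks no DEN liver had 422, 515, 438 and 515 CPM and NT liver 327, 213, 227 and 332 CPM, with no overlap. Abcc6 fell by 0.77 ± 0.15 on the log2 scale in that comparison (SE, adjusted p = 0.00183). Nodules at 14 weeks had 586, 216, 240.4 and 212 CPM. Nodules of 3 rats were below every no DEN value, and those of rat F06 were above every one. The log2 fold change in nodules was -0.61 with all 4 rats (95% CI -1.36 to 0.13, adjusted p = 0.151), and -1.10 without rat F06 (adjusted p = 8.01e-07). The same nodules of F06 had the lowest Abcc2 level of all 32 values, 162 CPM against 521 to 592 in the other 3 rats, and the log2 fold change of Abcc2 in nodules was -0.30 with F06 and 0.0052 without. These are the libraries with 63.2% and 44.7% of unassigned pairs, and the part of that share in the values was not tested. With only the second nodule kept for F06, Abcc6 was called at -0.73 (adjusted p = 0.0394). The 5 calls in nodules at 14 weeks were kept without F06 and with its second nodule alone.

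At 20 weeks Abcc6 in NT liver differed from no DEN liver by -0.11 (log2, 95% CI -0.41 to 0.18), and nodules had 303, 357, 209.8 and 159 CPM against 336, 397, 391 and 397 in no DEN liver. Abcc6 fell in these nodules by 0.61 ± 0.23 (adjusted p = 0.0458), with 1 nodule value inside the no DEN range. This call ended when rat H13, H14, H15, H16, H26 or H28 was left out (-0.67, -0.59, -0.60, -0.59, -0.51 and -0.42, adjusted p from 0.0530 to 0.117). It also ended when the first nodule of each rat was used alone (-0.31, adjusted p = 0.318).

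**Figure D2:**
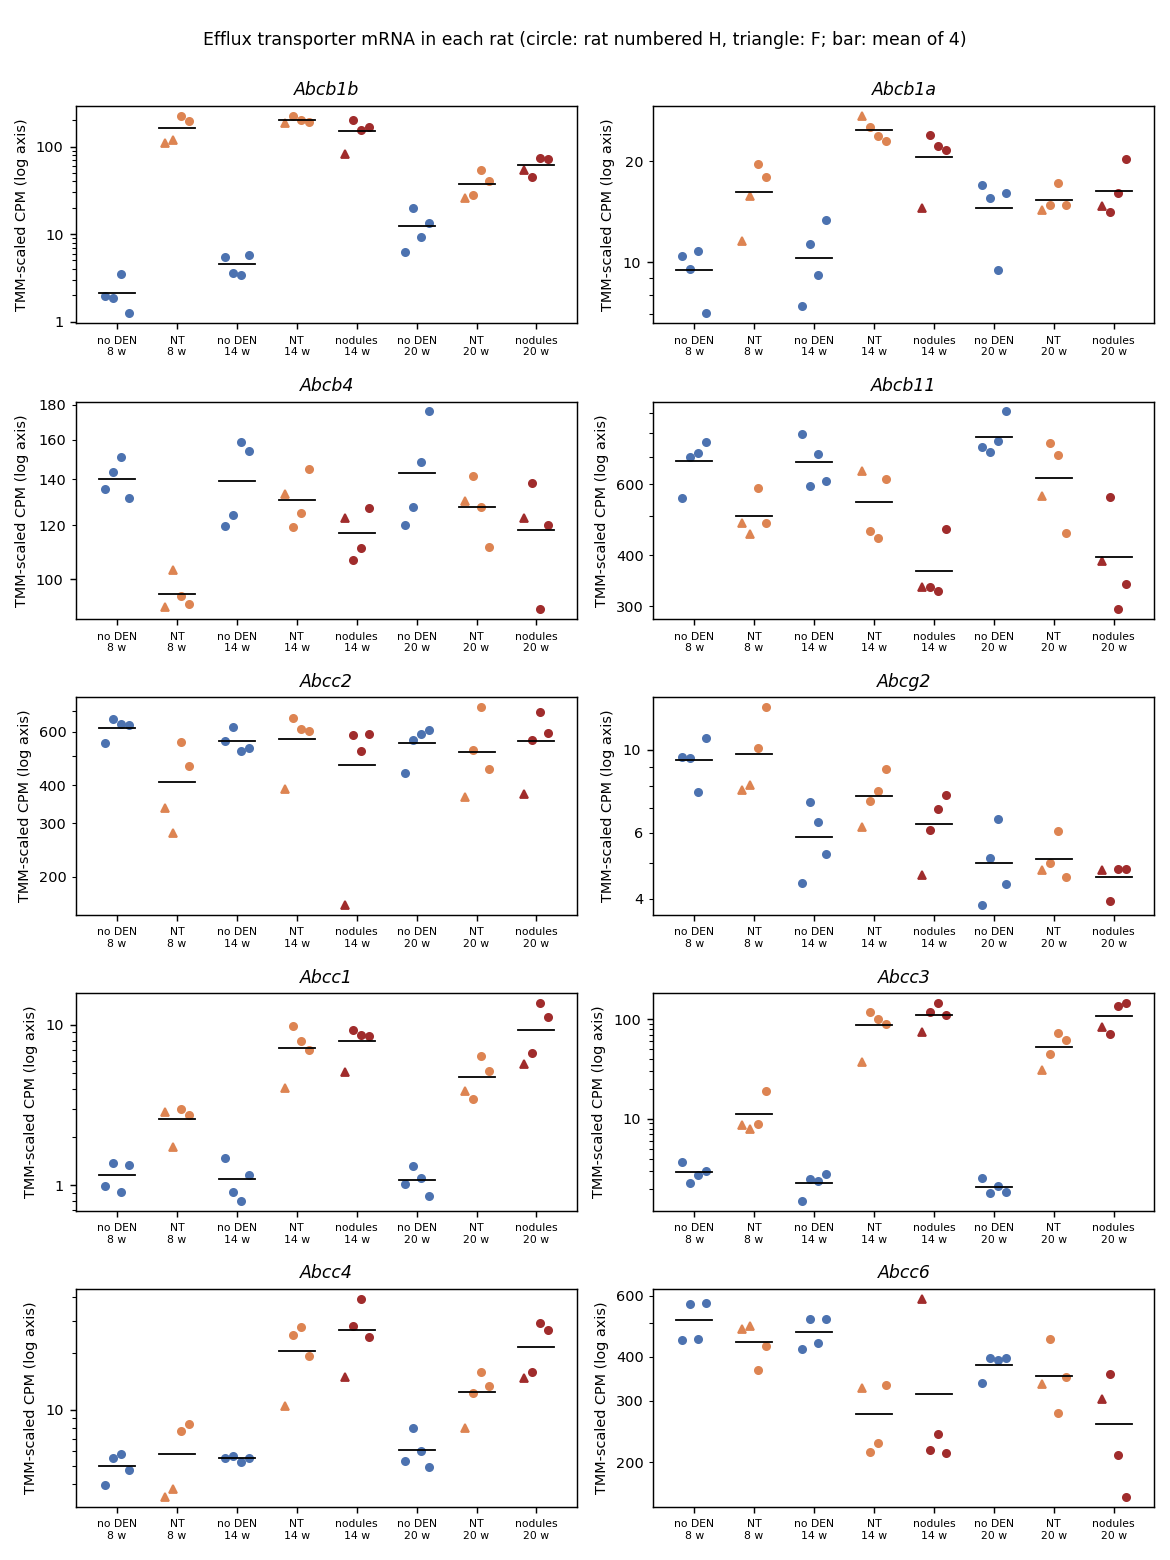
TMM-scaled CPM of each member in each rat (points, log axis, circles for rats numbered H and triangles for F) with the mean of the 4 rats (bars), in the 8 groups by week. Abcc1, Abcc3 and Abcc4 in NT liver and nodules lay above no DEN liver at 14 and 20 weeks with no overlap, and 1 triangle stands apart in nodules at 14 weeks for Abcc2 (162 CPM) and Abcc6 (586 CPM).

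The rats numbered F were 4 of the 12 DEN-treated rats and none of the untreated ones, and the meaning of the letter is not given in the sources used here. In the comparisons with no DEN liver, whatever the letter stands for and the treatment therefore cannot be told apart for these 4 rats, and the letters were not compared with each other by a test. In rats numbered H alone, NT liver at 14 weeks gave 5.49 for Abcc3, 2.91 for Abcc1, 2.13 for Abcc4, 1.21 for Abcb1a and -0.88 for Abcc6 (log2), with adjusted p from 6.52e-09 to 0.00103.

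The change in NT liver at one time was set against that at the next by an interaction term in edgeR (adjusted p at most 0.05). Between 8 and 14 weeks 4 of the 9 members had a higher log2 fold change at 14 weeks and none a lower one, where 4.16% of 11219 genes were called higher and 4.8% lower. The differences were 3.33 ± 0.56 (SE) for Abcc3 (adjusted p = 0.00661), 1.72 ± 0.44 for Abcc4 (adjusted p = 0.0259), 1.57 ± 0.40 for Abcc1 (adjusted p = 0.0227) and 0.49 ± 0.13 for Abcb4 (adjusted p = 0.0297). For Abcb4 this is a smaller deficit at 14 weeks, and for the other 3 a larger excess. The call for Abcc3 was kept whichever rat was left out. In 1 fit of all 8 groups the calls for Abcb4, Abcc1 and Abcc4 ended (0.45, 1.54 and 1.68, adjusted p = 0.140, 0.0651 and 0.0542). In rats numbered H alone the call for Abcb4 ended (0.50, adjusted p = 0.0536) and Abcc2 was called (0.45, adjusted p = 0.0440). The call ended for Abcb4 without rat H06, H07, H09, H10, F09, H22 or H23 (0.40 to 0.48, adjusted p from 0.0531 to 0.0718). It ended for Abcc1 without H06, H08, H10, H11 or H21 (1.35 to 1.5, adjusted p from 0.0503 to 0.0536), and for Abcc4 without H07, H11, F10, H21 or H22 (1.52 to 1.70, adjusted p from 0.0502 to 0.0594). Abcc2 was called without H17 or F06 (0.79 and 0.78), and Abcc6 without H17, F06 or H23 (-0.67, -0.65 and -0.70), neither being called with all rats (adjusted p = 0.140 and 0.0951).

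From 14 to 20 weeks, the time without DEN, the change of Abcb1a in NT liver was lost. Between 14 and 20 weeks the log2 fold change of Abcb1a in NT liver dropped by 1.2 ± 0.24 (SE, adjusted p = 0.0234), the only call among the 9 members, where 0.365% of 11245 genes were called higher and 0.373% lower. Leaving out rat H11, H13, H14, H16, H21, H22, F03 or H25 ended that call (-1.22 to -1.13, adjusted p from 0.0530 to 0.0626). From 14 to 20 weeks its mean level went from 24.8 to 15.3 CPM in NT liver and from 10.3 to 14.5 CPM in no DEN liver. For the basolateral pumps the difference was -0.59 for Abcc3 (95% CI -1.78 to 0.61), -0.58 for Abcc1 (95% CI -1.44 to 0.28) and -0.87 for Abcc4 (95% CI -1.67 to -0.065). For Abcc6 it was 0.66, in the other direction (95% CI 0.19 to 1.13, adjusted p = 0.151). None of these 4 was called. Abcc4 was called without rat F06 (-1.08, adjusted p = 0.0437). For Abcb1b, chosen because its rise shrank once treatment stopped, the same quantity was -3.85, given as a description with no test. In nodules, none of the 9 members was called between 14 and 20 weeks (0.0862% of 11607 genes called, 1 member at an unadjusted p of at most 0.05, and 0 members by DESeq2), with Abcb1a at -0.85 (95% CI -1.45 to -0.25) and Abcc3 at 0.079 (95% CI -0.68 to 0.84).

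Nodules were set against the NT liver around them to ask whether the pumps differ between tumor and surrounding tissue. In the fit that ignored which rat a sample came from, no gene was called at 14 or 20 weeks by edgeR (0% of 11466 and of 11546 genes, with 1348 and 2767 genes and 1 and 4 members at an unadjusted p of at most 0.05). DESeq2 called 35 and 902 genes, and 0 and 3 members. With the rat as a block, which uses the pairing of nodules and NT liver within an animal, 3 members rose and 2 fell in nodules at 20 weeks (9.21% of genes called higher and 5.46% lower), and none was called at 14 weeks (0% of genes, with 2518 genes and 5 members at an unadjusted p of at most 0.05).

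At 20 weeks nodules of every rat had more Abcc3, Abcc1 and Abcc4 than the NT liver of that rat. The blocked log2 fold change was 1.02 ± 0.11 (SE) for Abcc3 (adjusted p = 8.84e-05), 0.92 ± 0.11 for Abcc1 (adjusted p = 1.12e-04) and 0.75 ± 0.10 for Abcc4 (adjusted p = 2.19e-04). Abcb11 and Abcc6 were lower in nodules in 4 of 4 rats, by 0.69 ± 0.14 (adjusted p = 0.00380) and 0.53 ± 0.15 (adjusted p = 0.0291). Without the block the adjusted p of these 5 members lay between 0.113 and 0.272. Abcb1b, given without a test, was higher in nodules in 4 of 4 rats at 20 weeks and lower in 4 of 4 at 14 weeks. At 14 weeks the blocked value was -0.58 for Abcb11 (95% CI -0.83 to -0.33, adjusted p = 0.168), lower in 4 of 4 rats, and 0.36 for Abcc4 (95% CI 0.15 to 0.58, adjusted p = 0.168), higher in 4 of 4 rats. Abcb1a, Abcb4, Abcc2 and Abcg2 were also lower in nodules in 4 of 4 rats at 14 weeks, with blocked values of -0.30, -0.17, -0.43 and -0.28 (adjusted p from 0.197 to 0.281). For Abcb1a the log2 difference was -0.91 in F06 and -0.078 to -0.095 in the other rats. For Abcc2 it was -1.26 in F06 and -0.027 in H23. The share of all genes that went 1 way in 4 of 4 rats was not worked out at either time. Without rat F06 the blocked fit at 14 weeks called 2.59% of genes and no member, with Abcb11 at -0.45 (adjusted p = 9.58e-05), Abcc4 at 0.32 (adjusted p = 0.00720) and Abcb4 at -0.18 (adjusted p = 0.0201), all 3 smaller than the size set for a call.

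**Figure D3:**
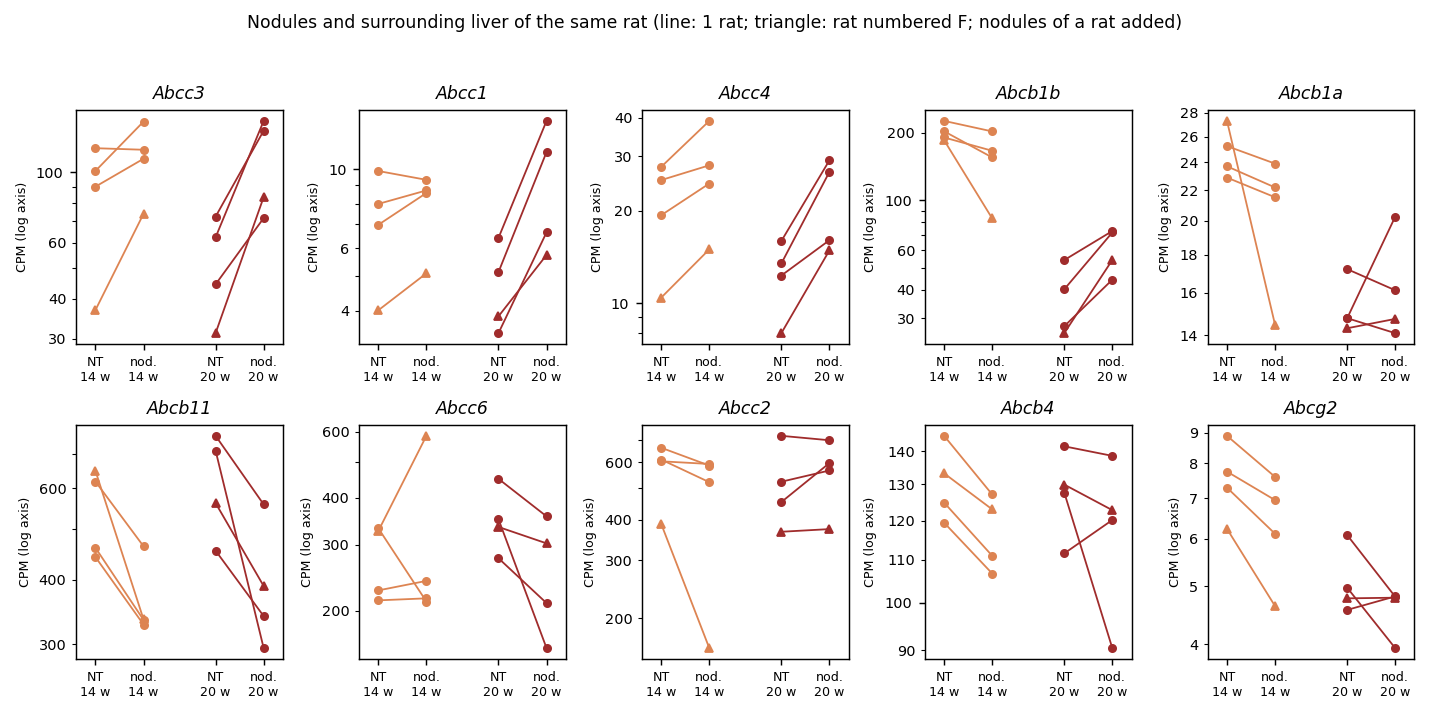
CPM (log axis) of each member in each DEN-treated rat, with a line from its NT liver to its nodules, at 14 and 20 weeks (4 rats each, nodules of a rat added, triangles for rats numbered F). At 20 weeks the lines of Abcc1, Abcc3, Abcc4 and Abcb1b rise in 4 of 4 rats and those of Abcb11 and Abcc6 fall in 4 of 4.

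The 2 nodules of a liver also differed from each other. The largest gap for any member was in Abcc4 at 14 weeks, where the nodules of rat F06 had 22.9 and 8.21 CPM, 2.78-fold apart (1.47 on the log2 scale). Over all genes the median gap in size was 0.26 on the log2 scale in F06 and 0.12 to 0.34 over the 8 rats. At 20 weeks the largest was in Abcb11, where the nodules of rat H28 had 515 and 207 CPM, 2.49-fold apart. For Abcc3 the gap was at most 1.56-fold in any of the 8 rats, and for Abcb1b at most 1.77-fold. Each nodule was sequenced once. In F06 the nodule with 22.9 CPM was the library with 63.2% of unassigned pairs and the other that with 44.7%, and the part of this in the gap was not tested.

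In untreated rats of different age no member was called by edgeR, from 8 to 14 weeks or from 14 to 20 weeks (0% of 10486 and 10432 genes called). At an unadjusted p of at most 0.05 there were 1 and 2 members and 1038 and 670 genes, and DESeq2 called 20 and 18 genes, Abcg2 among the first. Abcc6 at 20 weeks was below all its values at 14 weeks in untreated rats, by -0.31 on the log2 scale (adjusted p = 0.475).

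Markers of other cell types also differed between DEN-treated and no DEN liver. In these comparisons Abcc1 and Abcc3 were called higher each time and Abcc4 from 14 weeks on, while Abcc6 was called lower in NT liver at 14 weeks and in nodules at 20 weeks. The summed level of the 4 cholangiocyte markers in the files (of 5 listed) was 16.2 to 24 CPM in no DEN liver at 14 weeks, 38.3 to 89.3 in NT liver and 62.6 to 119 in nodules. At 20 weeks it was 17.9 to 22.4, 34.6 to 55.4 and 71.1 to 189 CPM. All 4 were called higher in NT liver and nodules at both times, as were 3 of 4 at 8 weeks. Of 5 endothelial markers 4 were called higher in each comparison with no DEN liver, and of 6 stellate cell markers 5 rose in NT liver at 8 weeks, 5 rose and 1 fell at 14 weeks, and 3 rose at 20 weeks. Of 6 macrophage markers 1 or 2 rose in each, and of the leukocyte markers tested 4 of 4, 2 of 3 and 1 of 3 rose in NT liver at 8, 14 and 20 weeks. In nodules 4 of 6 stellate cell markers rose at each time, and 3 of 4 and 2 of 4 leukocyte markers at 14 and 20 weeks. Over all genes 16.5%, 22.8% and 14.3% rose in NT liver at 8, 14 and 20 weeks, and 23.9% and 23.6% in nodules. In NT liver at 14 weeks 9.85% fell. A count of 1 of 6 is near these shares. None of these markers was at 3 counts or fewer in every library. Their part in the pump values was not tested.

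Of all genes 16.5%, 22.8% and 14.3% were called higher in NT liver at 8, 14 and 20 weeks, and 23.9% and 23.6% in nodules. The 4 proliferation markers Mki67, Top2a, Cdk1 and Ccnb1 were all called higher in NT liver at 8 and 14 weeks and in nodules at 14 and 20 weeks, and 2 of the 4 in NT liver at 20 weeks. Their summed level was 11.5 to 20.8 CPM in no DEN and 75.5 to 95.2 in NT liver at 8 weeks, 13.5 to 18.4 and 61.4 to 154 at 14 weeks, and 10.3 to 22.5 and 19 to 61.9 at 20 weeks. In nodules it was 66.8 to 169 at 14 weeks and 40.8 to 129 at 20 weeks. Its part in the Abcb1b values was not tested.

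Of 10100 genes with a mean of at least 1 CPM, those whose log2 level was most like that of Abcb1b over the 32 values (8 groups of 4 rats) were Fas (r = 0.958), Mybl1 (0.953), Fam111a (0.932), Mybl2 (0.927) and Lama5 (0.927). Fas is a death receptor, Mybl1 and Mybl2 are transcription factors of the MYB family, and Lama5 is a laminin chain. These coefficients mostly reflect the group means, which the points share. After each value was set against its group mean, r was 0.43, 0.49, 0.37, 0.49 and 0.042. The mean level of Fas was 5.28 CPM in no DEN and 15.2 in NT liver at 8 weeks, 5.52 and 19.1 at 14 weeks, and 6.14 and 10.4 at 20 weeks.

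Hepatic uptake carriers, which bring bile salts and organic anions from the blood into the hepatocyte, were called in 1 direction. Of 9 listed carriers 8 were in the files and all 8 were tested. In NT liver 5, 8 and 3 of them fell at 8, 14 and 20 weeks, all 8 fell in nodules at both times, and none rose, where 5.21%, 9.85% and 3.82% of all genes fell in NT liver and 15.2% in nodules at each time. Their median log2 fold change was -0.92 in NT liver at 14 weeks and -1.23 in nodules at 20 weeks. The largest falls in NT liver at 14 weeks were in Slc22a8, an organic anion transporter (-1.63 ± 0.14, SE), and in the organic anion transporting polypeptides Slco1b2 (-1.29 ± 0.14), Slco1a1 (-1.19 ± 0.13) and Slco1a2 (-1.0 ± 0.18). In nodules at 20 weeks the values were -1.25, -1.79, -1.74 and -1.44. With the rat as block, 7 of the 8 carriers were called lower in nodules than in NT liver at 20 weeks, where 5.46% of genes were. The hepatocyte marker sum at 20 weeks was 181786 to 252255 CPM in NT liver and 118516 to 185702 in nodules, against 240901 to 274687 in no DEN liver, which NT liver overlapped and nodules did not. Of the 6 markers 1 fell in NT liver at 8 weeks, 4 fell and 1 rose in NT liver at 14 weeks and in nodules at both times, and 1 rose and none fell in NT liver at 20 weeks. The marker that rose was Apoa1, an apolipoprotein gene, named after its values were seen. Their part in these falls and in that of Abcb11 was not tested.

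The other 39 ABC transporters in the files gave calls in both directions. In NT liver 5 rose and 3 fell of 32 tested at 8 weeks, 11 rose and 5 fell of 34 at 14 weeks, and 9 rose and 1 fell of 34 at 20 weeks. In nodules 10 rose and 9 fell of 35 at 14 weeks, and 9 rose and 9 fell of 34 at 20 weeks. Several of these counts are near the shares over all genes, which were 16.5% higher and 5.21% lower in NT liver at 8 weeks, 22.8% and 9.85% at 14 weeks, 14.3% and 3.82% at 20 weeks, 23.9% and 15.2% in nodules at 14 weeks, and 23.6% and 15.2% at 20 weeks. Among called genes with a mean of at least 1 CPM over both groups, the largest changes in NT liver at 14 weeks were in Cftr, a chloride channel of cholangiocytes (2.86 ± 0.42, SE), Abcd2, a peroxisomal fatty acid transporter (1.97 ± 0.20), Abcg8, a canalicular sterol exporter (1.49 ± 0.22), and Abcc8, a subunit of a potassium channel (-1.22 ± 0.18). Cftr was at 0.27 ± 0.20 CPM (SD) in no DEN liver at 14 weeks and 2.0 ± 0.59 in NT liver. Abcd2 was at 0.97 ± 0.23 and 3.8 ± 0.61 CPM. Cftr and Abcd2 thus met the rule of 1 CPM only through NT liver. At 20 weeks Cftr was 2.55 and Abcg8 2.21 in NT liver, both called, while Abcd2 at 0.74 and Abcc8 at -0.23 were not.

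Partners that hold or assist the pumps at the membrane gave 11 tested genes of 15 listed. In NT liver 1 rose and none fell at 8 weeks, 3 rose and 1 fell at 14 weeks, and 2 rose and 1 fell at 20 weeks, and in nodules 3 rose and 4 fell at each time. Over all genes 16.5%, 22.8% and 14.3% rose in NT liver at 8, 14 and 20 weeks, and 5.21%, 9.85% and 3.82% fell. In nodules 23.9% and 23.6% rose at 14 and 20 weeks, and 15.2% fell at each time. The counts that rose at 14 and 20 weeks are near these shares in NT liver and in nodules. The 1 that fell in NT liver at 14 weeks is near its share too. Ezrin and moesin, which tie membrane proteins to actin, rose in NT liver at 14 weeks by 1.83 ± 0.15 for Ezr and 1.42 ± 0.11 for Msn (log2, SE). The scaffold gene Pdzk1 fell by 0.86 ± 0.063 there and by 1.25 in nodules at 20 weeks.

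Receptors and factors known to act on these transporter genes gave no rise in any comparison with no DEN liver. Of 14 tested, 2, 3 and 2 fell in NT liver at 8, 14 and 20 weeks, and 5 and 6 fell in nodules at 14 and 20 weeks, where 5.21%, 9.85% and 3.82% of all genes fell in NT liver and 15.2% in nodules at each time. In NT liver at 14 weeks the called genes were Rxra, the common partner of nuclear receptors (-0.79 ± 0.14, SE), Nr1h4, the bile acid receptor FXR (-0.64 ± 0.092), and Hnf4a, a hepatocyte factor (-0.54 ± 0.11).

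Other targets of the sensors of drugs, oxidants and DNA damage gave calls in both directions. Of 17 listed, 7 rose and 1 fell of 16 tested in NT liver at 8 weeks, 10 rose and 3 fell of 17 at 14 weeks, and 9 rose and 3 fell at 20 weeks. In nodules 11 rose and 4 fell at 14 weeks, and 10 rose and 6 fell at 20 weeks. Over all genes 16.5%, 22.8% and 14.3% rose in NT liver at the 3 times, and 5.21%, 9.85% and 3.82% fell. In nodules 23.9% and 23.6% of all genes rose, and 15.2% fell at each time. The 1 of 16 that fell in NT liver at 8 weeks is near its share. Among those with a mean of at least 1 CPM, the largest changes in NT liver at 14 weeks were in Gstp1, a glutathione transferase (7.28 ± 0.51, SE), Cyp1a1, a target of the aryl hydrocarbon receptor (4.40 ± 0.35), Nqo1, a quinone reductase (4.10 ± 0.58), and Ugt1a6, a glucuronosyltransferase (3.61 ± 0.35). At 20 weeks these were 6.73, 2.32, 2.54 and 2.58. The p53 targets Cdkn1a and Mdm2, named after their values were seen, were 1.94 and 1.46 in NT liver at 14 weeks, both called, and 0.31 and 0.34 at 20 weeks, neither called. Over all genes the median log2 fold change in NT liver at 14 weeks was 0.020, beside 1.79 for these targets, -0.13 for the receptors, -0.0061 for the partners, 0.02 for the other ABC transporters and -0.92 for the uptake carriers.

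**Figure D4:**
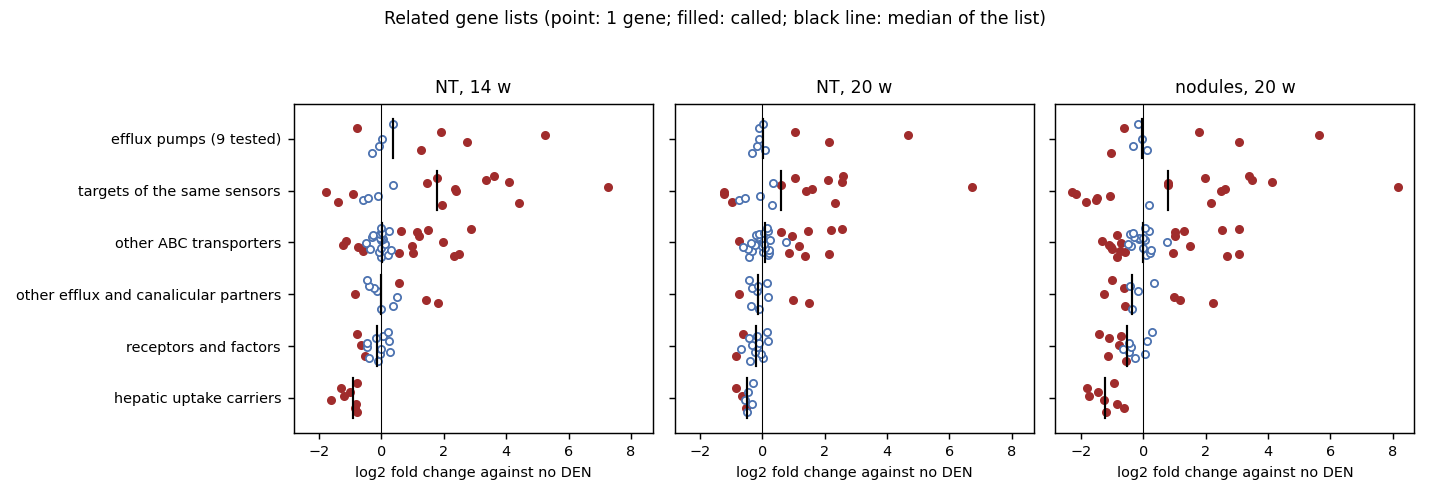
Log2 fold change against no DEN liver in NT liver at 14 and 20 weeks and in nodules at 20 weeks, for the 9 tested pumps and 5 lists of related genes (1 point a gene, filled where called, black line at the median of the list). In NT liver at 14 weeks all 8 uptake carriers lie below 0 and are called, while the pumps range from -0.77 (Abcc6) to 5.25 (Abcc3).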

How the data were processed

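RNA of liver tissue was made into stranded mRNA libraries (TruSeq) and sequenced as 75 bp read pairs. Per the labels and the study's methods, the authors aligned the pairs to the rat genome rn6 with STAR 2.7.1a and counted them per gene with HTSeq, on the reverse strand and dropping pairs aligned to several places. The values used are these deposited counts of 17337 genes, raw and with no filter. Lines that name no gene were kept out of library sizes: unassigned pairs (outside exons, partly outside one, or on the other strand, as HTSeq's strict intersection leaves them) came to 32.1% to 63.2% of the counted pairs, pairs aligned to several places to 12.6% to 27.8%, and ambiguous pairs to 1.26% to 2.44%. No molecular identifiers were used, so counts are not independent molecules, and errors come from the spread between rats.

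Groups were taken from the labels. The 2 nodules from each rat were summed into 1 column of counts. For each of 9 pairwise comparisons and 3 interactions only its own groups were fitted, with filterByExpr, TMM and the robust quasi-likelihood test of edgeR 4.0.16 in R 4.3.3 (2-sided, Benjamini-Hochberg over the genes tested), without the rat as a block, since no model design is stated by the study, which used DESeq2. The code was tested on simulated data. Alternatives were DESeq2 1.42.0, size factors by RLE, no filter, 1 fit of all 8 groups, each rat left out, rats numbered H only, each nodule alone, a stricter threshold, and the rat as a replicate block. The block without rat F06, and only the second nodule kept for F06, were added after seeing the data. NT liver and nodules of a rat deviated from their group means together (r from 0.387 to 0.615 at 14 weeks and 0.578 to 0.647 at 20 weeks, over 10100 genes), and the pairing comes from the rat number in the labels. Levels are CPM with TMM over all 40 libraries, and levels of different genes were not compared, since no transcript lengths were used. Log2 levels for likeness used a prior count of 2. The members and lists were chosen with earlier results of these data known. All 10 members were named, with up to 4 genes per list with the largest called change in NT liver at 14 weeks and a mean of at least 1 CPM, and the 5 genes most like Abcb1b. 1 gene that this rule named is not reported here. Slco1a4, Slc51b, Cgn, Krt7 and Cd79a were not analysed here.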

Additional observations from a re-analysis of the deposited data

Results flagged for a closer look

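Of 80 sets of 4 rats (10 members in 8 groups), 9 held a value far from the other 3 by Dixon's test, where chance marks about 1 in 20. The nodules of rat F06 at 14 weeks gave 3 of them, with low Abcc1 (5.1 CPM) and Abcc2 (162 CPM) and high Abcc6 (586 CPM). Their 2 libraries had the highest shares of unassigned pairs of all 40 (63.2% and 44.7% of counted pairs), and the first the fewest counted pairs, and the part of this in the values was not tested. The others were high Abcb11 in nodules of H23 at 14 weeks (464 CPM), low Abcc1 in NT liver of F10 at 8 weeks (1.72 CPM), high Abcc3 in NT liver of H18 at 8 weeks (19.1 CPM), and low Abcg2 in nodules of H25 at 20 weeks (3.94 CPM). In no DEN liver at 20 weeks they were low Abcb1a in H15 (9.47 CPM) and low Abcc6 in H13 (336 CPM).

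Changes in NT liver against no DEN liver differed between 8 and 14 weeks for Abcb4 (0.49 on the log2 scale), Abcc1 (1.57), Abcc3 (3.33) and Abcc4 (1.72), and between 14 and 20 weeks for Abcb1a (-1.2), by the interaction test.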

How the results depend on the processing

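Of 1719 member values under the alternatives, 88 changed sign, none of them a called value. At the stricter threshold 2 members were called in NT liver at 8 weeks (5 at the main one) and 3 in nodules at 14 weeks (5). For nodules against NT liver at 20 weeks, 0 members were called in the main fit, 3 by DESeq2, 3 in 1 fit of all 8 groups and 5 with the replicate block, which was fitted for nodules against NT liver only and called no member at 14 weeks, as without it. From 8 to 14 weeks in untreated rats DESeq2 called 1 (0). Of the interactions, 1 fit of all groups called 1 between 8 and 14 weeks (4), and rats numbered H alone called 2 between 14 and 20 weeks (1). With 1 rat left out, 4 to 6 members were called in NT liver at 8 weeks. At 14 and 20 weeks the range was 5 to 5 and 3 to 3 there, and 5 to 6 and 4 to 5 in nodules. For nodules against NT liver it was 0 to 0, in the fit without the block. At 20 weeks no rat was left out of the fit with the block. In untreated rats from 8 to 14 weeks 0 to 1 were called (1 without H07). The range was 2 to 6 for the interaction of 8 and 14 weeks and 0 to 2 for that of 14 and 20 weeks. Over all genes, the stricter threshold called 855, 1676 and 565 in NT liver and 2117 and 1946 in nodules (2344, 3592, 1957, 4425 and 4347 in the main fits). For nodules against NT liver DESeq2 called 35 at 14 weeks, the block without F06 300, and DESeq2 902 at 20 weeks, where 1 fit of all groups called 1096, the first nodule alone 218, the block 1693 and the fit without H25 445 (0 in the main fits). In untreated rats the main counts were 0, with 20 and 18 by DESeq2, 2 and 2 without the filter, 1 from 8 to 14 weeks in 1 fit of all groups, and up to 117 and 2 with 1 rat left out. The interaction of 8 and 14 weeks had 1005 genes (1529 by DESeq2, 151 in 1 fit of all groups, 533 to 1870 with 1 rat left out), that of 14 and 20 weeks 83 (381, 41, 31 to 408, and 182 in rats numbered H) and that of nodules 10 (29, 16, 6 to 15). Without leaving a rat out, Abcc6 in nodules at 14 weeks was called in 1 fit of all groups (-0.59), from the second nodule alone (-0.61), and with the second nodule alone for F06 (-0.73, 6 members called), and Abcc2 at 8 weeks and Abcc6 in nodules at 20 weeks were not called in 1 fit of all groups (-0.60 and -0.59). The causes were not tested. With 4 rats a group, changes near the threshold depended on single rats. The lowest count of Abcc1 was 20 pairs in a library, so counting error is part of its spread.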
